A study of Mus musculus with 6 samples.

Results

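The chromatin around 3 chemokine genes, Ccl24, Ccl17 and Ccl22, was described in mouse bone marrow-derived macrophages (BMDMs) by ATAC-seq, in which a transposase inserts sequencing adapters into open DNA. The members were all accessible sites of the deposited site table that lay, in the mm9 build, within the 200 kb from 135950000 to 136150000 on chromosome 5 (the Ccl24 locus, 58 sites) or within the 180 kb from 97220000 to 97400000 on chromosome 8 (the Ccl22-Ccl17 locus, 50 sites). These were 108 of 578591 sites, chosen by position and not by signal, and both loci were kept apart throughout. No annotation of mm9 was used here, so a site was placed in a window and was not assigned to a gene, exon, intron or promoter. The order of the genes, taken by name from RefSeq, places Ccl24 between Ccl26 and Rhbdd2, and places Ccl22, Cx3cl1 and Ccl17 next to each other between Pllp and Ciapin1, so the window on chromosome 8 spans Cx3cl1 too.

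CCL24, also called eotaxin-2, is a ligand of the receptor CCR3 and attracts eosinophils. CCL17 and CCL22 are both ligands of CCR4 and attract T helper 2 cells and regulatory T cells. The 3 chemokines are known products of macrophages exposed to IL-4, a type 2 cytokine that signals through its receptor to the transcription factor STAT6.

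The study asked how IL-4 and perturbation of the cytoskeleton alter macrophage chromatin. All 6 libraries came from wild-type mice labelled C57BL/6 (C57BL/6J in the culture protocol), whose marrow cells were differentiated in medium conditioned by L929 cells, a known source of MCSF, so all groups had met this factor before the experiment. Cells of the Untreated group received no addition, and those of the IL-4 group received IL-4 at 20 ng/ml for 24 h. The DMSO group received the vehicle alone, and the DMSO + IL-4 group received the vehicle with IL-4 for 24 h. The LatA + IL-4 group received latrunculin A, a toxin that blocks actin polymerization, at 1 µM with IL-4 for 24 h. The MCSF + IL-4 group received MCSF, the growth factor also called CSF1, at 100 ng/ml with IL-4 for 24 h. The number of mice behind each library is not stated in the labels, and macrophage identity was not checked against marker genes because sites were not assigned to genes.

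Each group was 1 library, with 12387332 to 19889902 reads in sites. There were thus no replicates and no test was made, and each ratio compared a pair of libraries rather than a pair of conditions. Values are given in 1 order of libraries throughout, namely Untreated, DMSO, IL-4, DMSO + IL-4, MCSF + IL-4 and LatA + IL-4, the last 2 also being called with MCSF and with latrunculin A. They are normalized reads, which are whole reads divided by the authors' effective library size and brought to a common depth. Parentheses after a ratio hold its exact (Clopper-Pearson) 95% interval, which covers counting error only. Differences between the vehicle libraries and those without vehicle (the vehicle alone, and the vehicle in the presence of IL-4) are given beside the results. A site was compared between libraries when its mean over the 6 libraries was at least 20 normalized reads, which held for 16 of 58 sites of the Ccl24 locus and 14 of 50 of the Ccl22-Ccl17 locus, and for 132057 sites in all. Calls of higher and lower rest on a difference past 1.5-fold in normalized reads, with 1 read added to each on the log2 scale.

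RefSeq promoter sequences were at hand for 2 of the 3 genes, Ccl17 and Ccl22 but not Ccl24. They are shown because STAT6 is the known effector of IL-4. Each is the 250 bases before the start of the gene on the + strand of GRCm38.p6, at chr8:94810203-94810452 for Ccl17 and chr8:94745434-94745683 for Ccl22. That build differs from the mm9 build of the sites, so the promoters were not placed among the sites. Capitals mark the matches to 7 motifs searched on both strands.
Ccl17: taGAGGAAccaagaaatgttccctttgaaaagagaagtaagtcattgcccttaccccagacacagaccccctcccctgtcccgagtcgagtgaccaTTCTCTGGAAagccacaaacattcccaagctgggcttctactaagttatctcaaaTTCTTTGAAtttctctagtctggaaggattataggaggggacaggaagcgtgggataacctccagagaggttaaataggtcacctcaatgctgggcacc
Ccl22: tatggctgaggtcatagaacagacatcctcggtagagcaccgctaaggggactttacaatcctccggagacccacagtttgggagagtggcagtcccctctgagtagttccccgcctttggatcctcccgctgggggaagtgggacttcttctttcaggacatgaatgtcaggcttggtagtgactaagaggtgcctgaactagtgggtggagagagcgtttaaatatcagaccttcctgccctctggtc
The Ccl17 promoter held 1 match to the STAT6 type of motif, TTC and GAA with 4 bases of any kind between them, at bases 154 to 145 before the start. It also held 1 match to the motif of other STAT proteins (TTCNNNGAA) at bases 99 to 91, and 1 to the core of the macrophage factor PU.1 (GAGGAA) at bases 248 to 243. The Ccl22 promoter held no match to these, nor to the AP-1 type (TGANTCA), the C/EBP type (TTGCNNAA), the TATA box (TATAAA) or the NF-kB type (GGG, 2 bases of any kind, then TTTCC), and the Ccl17 promoter held no match to these last 4 either. Of 32851 promoters of the same length, 5.85% held the STAT6 type, 7.02% the other STAT type, 23.3% the PU.1 core, 6.75% the AP-1 type, 9.56% the C/EBP type, 12.4% the TATA box and 1.41% the NF-kB type. Among 17 other chemokine genes listed for comparison, 10 had a promoter sequence and 0 of these held the STAT6 type. Of 5 IL-4-linked genes also listed, 4 had one and 2 of these, Pdcd1lg2 and Retnla, held the STAT6 type. A match describes the letters of this window and was not taken as a site of binding.

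The Ccl24 locus held 1 site of high signal and many weak ones. Its site with the highest mean, called its leading site, was chr5:136101170-136102173, 1004 bp wide, with a mean of 374 normalized reads. The other sites were at a mean of 0.247 to 135, and 42 of the 58 stayed under 20, with 19.5 as their highest mean. The Ccl22-Ccl17 locus was more even, with a mean of 138 at its leading site, chr8:97227255-97228244, and 36 of 50 sites under 20, with 19.4 as their highest. One weak site there had 0 reads in all 6 libraries. The median mean was 12.2 normalized reads per site at the Ccl24 locus and 10.6 at the Ccl22-Ccl17 locus, beside 10.8 over all sites of the series. Median widths were 321.5 bp and 244 bp, beside 270 bp over all sites.

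**Figure D1:**
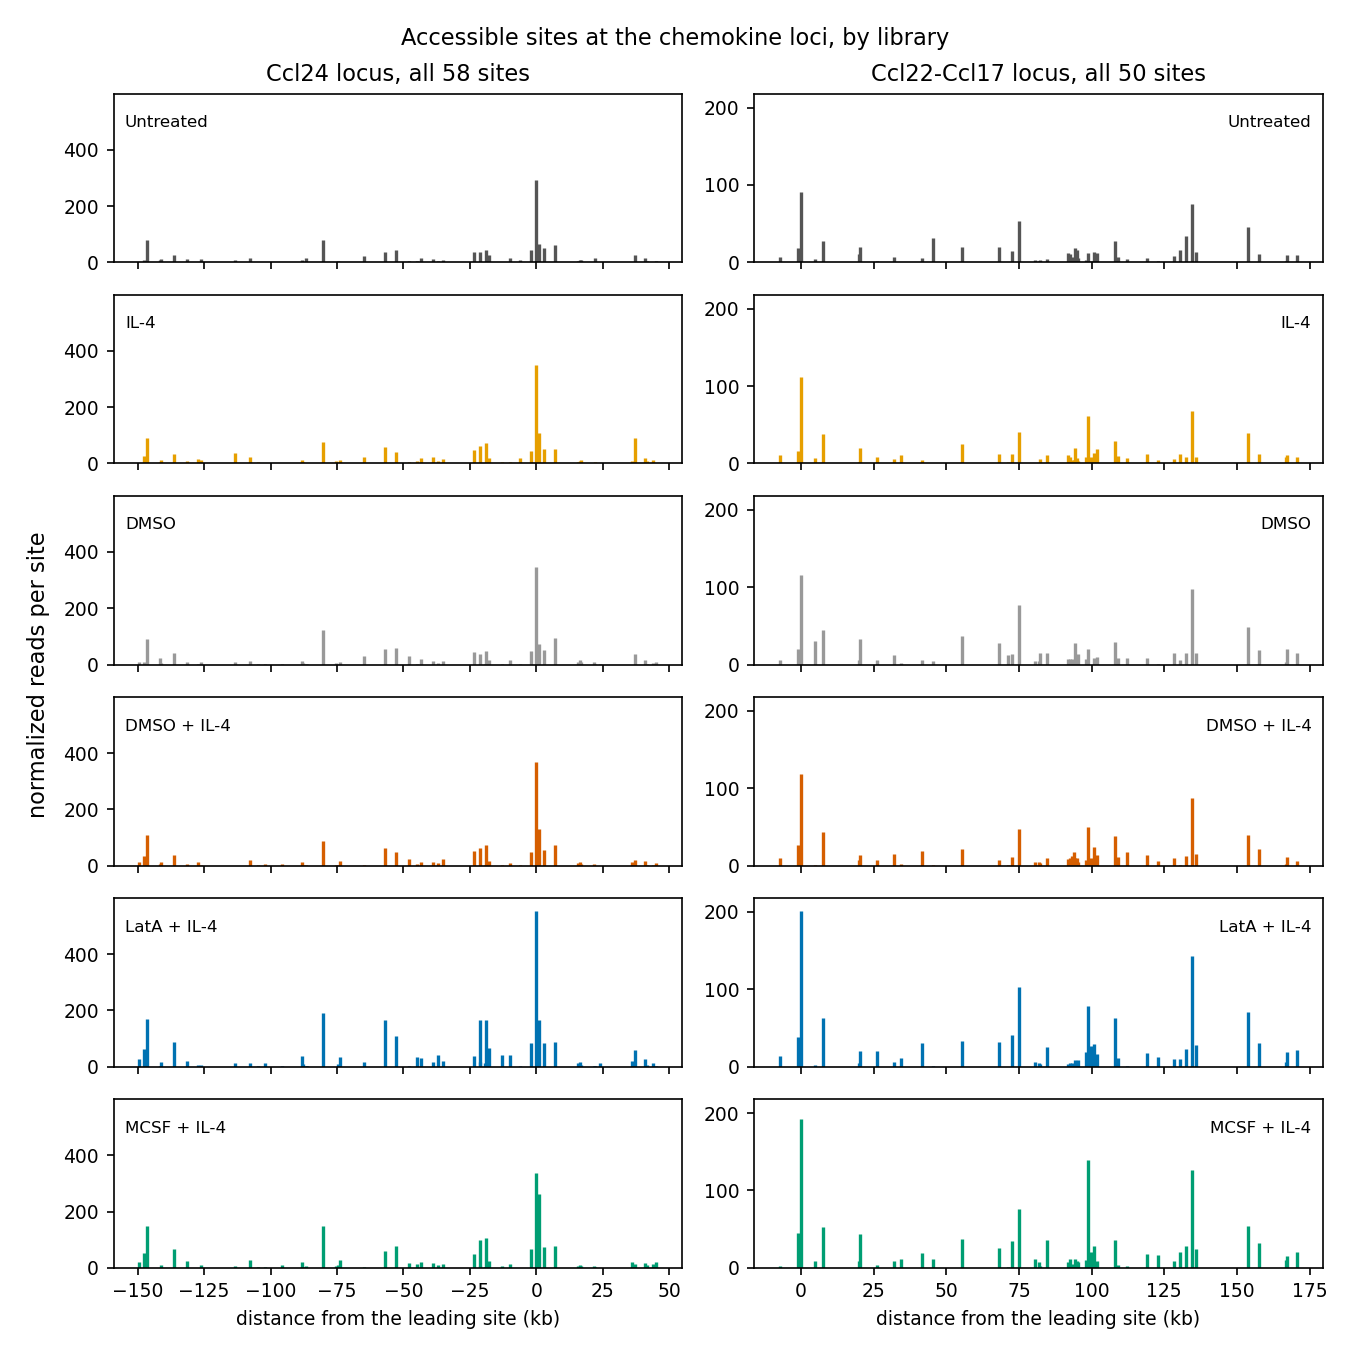
Normalized reads (y axis) of all 58 sites of the Ccl24 locus (left) and all 50 sites of the Ccl22-Ccl17 locus (right) against the distance of each site from the leading site of its locus in kb (x axis), with a row for each library. The leading Ccl24 site stands at 291 to 554 normalized reads in every row, while the signal of the Ccl22-Ccl17 locus is spread over several sites.

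The authors' peak calls, made in each library, differed in number between libraries at both loci. At the Ccl24 locus a peak was found at 22 sites in Untreated and 22 in DMSO, at 31 with IL-4 alone and 23 with DMSO + IL-4, and at 30 with MCSF and 38 with latrunculin A. Over all sites of the series, 43.4%, 37.2%, 37.4%, 36.4%, 37.2% and 36.5% had a peak in this order of libraries. At the Ccl22-Ccl17 locus the sites with a peak numbered 25, 22, 14, 16, 25 and 24 in the same order of libraries, so both libraries given IL-4 alone or with DMSO had the fewest there. They also had the fewest when a peak needed a −log10 q of at least 5, which took Untreated to 16, and when peaks had to cover at least 50% of a site, which took IL-4 alone to 7. A peak in all 6 libraries was found at 12 sites of the Ccl24 locus and 8 of the Ccl22-Ccl17 locus, and a peak in 1 library only at 21 and 24 sites. Of all sites of the series, 11.6% had a peak in all 6 libraries and 41.3% in 1 only. Across the whole genome the Untreated library had the most peaks of the 6, 269643 beside 222076 to 232676 in the others.

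Summed over its 58 sites, the Ccl24 locus was lowest in the Untreated library and highest in LatA + IL-4. The sums were 1233 normalized reads in Untreated and 1507 in DMSO, 1608 with IL-4 alone and 1602 with DMSO + IL-4, 2096 with MCSF and 2885 with latrunculin A. In ascending order, neighbours whose ratio had an interval that held 1 were DMSO and DMSO + IL-4 (1.06, 0.987 to 1.14), and DMSO + IL-4 and IL-4 (1.00, 0.933 to 1.08). The other steps of the order lay outside counting error. They were DMSO above Untreated (1.22, 1.14 to 1.31), MCSF + IL-4 above IL-4 (1.30, 1.22 to 1.39) and LatA + IL-4 above MCSF + IL-4 (1.38, 1.30 to 1.46). The processing mattered for DMSO and MCSF. With the trend of the log2 ratio with mean signal removed, medians over compared sites were -0.0149 for DMSO against Untreated and 0.0845 for MCSF + IL-4 against IL-4.

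The Ccl22-Ccl17 locus had lower sums and another order. It held 735 normalized reads in Untreated and 928 in DMSO, 760 with IL-4 alone and 850 with DMSO + IL-4, 1322 with MCSF and 1342 with latrunculin A. Here the intervals held 1 for Untreated and IL-4 (1.03, 0.940 to 1.14), for DMSO + IL-4 and DMSO (1.09, 0.990 to 1.20) and for MCSF + IL-4 and LatA + IL-4 (1.02, 0.936 to 1.10). The libraries given latrunculin A or MCSF were thus the highest at both loci, and they were apart from each other, beyond counting error, only at the Ccl24 locus.

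**Figure D2:**
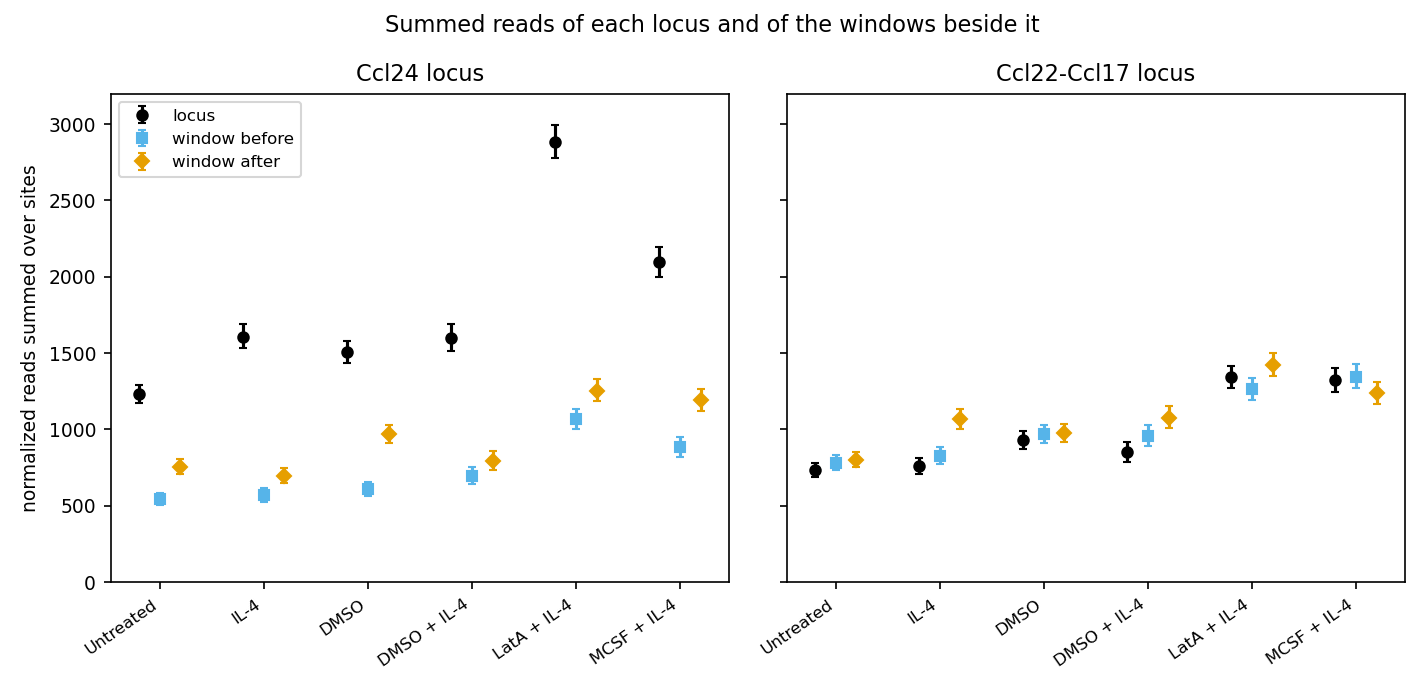
Normalized reads summed over the sites of each locus (circles) and of the windows of equal length directly before (squares) and after it (diamonds), for the 6 libraries on the x axis, with 1 library per group and bars for the 95% counting interval. The Ccl24 sum runs from 1233 in Untreated to 2885 in LatA + IL-4, and the Ccl22-Ccl17 sum from 735 in Untreated to 1342 in LatA + IL-4.

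With IL-4 the summed signal of the Ccl24 locus was higher without the vehicle and hardly different with it. The log2 ratio was 0.38 (0.28 to 0.48) for IL-4 against Untreated, and the same contrast made in DMSO gave 0.09 (-0.02 to 0.19). These comparisons have no library in common. Beside them, the vehicle alone gave 0.29 (0.19 to 0.39) against Untreated, and in the presence of IL-4 it gave -0.01 (-0.11 to 0.10). At the Ccl22-Ccl17 locus the IL-4 log2 ratios were 0.05 (-0.09 to 0.19) without DMSO and -0.13 (-0.27 to 0.01) with it, while DMSO gave 0.34 (0.21 to 0.46) against Untreated and 0.16 (0.01 to 0.31) with IL-4. Neither locus as a whole passed 1.5-fold with IL-4, and the vehicle difference was as large as or larger than the IL-4 difference at the Ccl22-Ccl17 locus.

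Set against each other within the same libraries, which cancels the scaling between libraries, the Ccl24 locus gained more with IL-4 than the Ccl22-Ccl17 locus. The ratio of the ratios was 1.26 (1.12 to 1.42) without DMSO and 1.16 (1.03 to 1.31) with it, beside 0.967 (0.865 to 1.08) for the vehicle alone and 0.890 (0.783 to 1.01) for the vehicle added to IL-4. Against the windows of equal length on both sides of it, the Ccl24 locus stood at 1.34 (1.21 to 1.48) with IL-4 alone and 1.12 (1.01 to 1.25) with IL-4 in DMSO, beside 1.01 (0.915 to 1.11) for the vehicle alone and 0.846 (0.759 to 0.944) for the vehicle added to IL-4. The 2 flanks did not behave alike. In DMSO, IL-4 gave 1.14 (1.02 to 1.28) in the window before the Ccl24 locus and 0.819 (0.741 to 0.904) in the window after it, around 1.06 in the locus, so the locus exceeded only the window after it. Without DMSO the windows gave 1.05 (0.937 to 1.17) and 0.922 (0.836 to 1.02), both under the 1.30 of the locus. The Ccl22-Ccl17 locus stood below the sum of its flanks, at 0.864 (0.771 to 0.969) and 0.875 (0.778 to 0.984), while its vehicle ratios against them had intervals that held 1. The window after it gave 1.33 (1.22 to 1.45) with IL-4 alone and a smaller ratio, with an interval above 1, in DMSO. The window before it gave 1.06 (0.964 to 1.16) and 0.989 (0.901 to 1.09), close to the 1.03 and 0.916 of the locus itself.

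Site by site, IL-4 gave more calls above than below at the Ccl24 locus. Without DMSO, 6 of 16 compared Ccl24 sites were called higher and 0 lower, where 20.8% of all compared sites were higher and 8.88% lower. With DMSO, 4 were higher and 1 lower, beside 16.6% and 12.8% of all compared sites. The median log2 ratio over the 16 sites was 0.31 and 0.09, beside 0.10 and 0.01 over all compared sites. At the Ccl22-Ccl17 locus 1 of 14 compared sites was called higher in each IL-4 comparison, 2 were lower without DMSO and 4 lower with it, and the medians were -0.08 and -0.20. Both IL-4 comparisons together called 4 Ccl24 sites and 1 Ccl22-Ccl17 site higher, against a background of 8.73%, and 0 and 1 site lower, against 2.38%. The Ccl24 counts without DMSO depended on the scaling. When the trend of the log2 ratio with mean signal was removed (hereafter, with the trend removed), 2 of 16 Ccl24 sites were higher without DMSO, beside 17.0% of all compared sites, 4 were higher with DMSO, beside 16.1%, and 1 was higher in both, beside 7.93%. Of the sites called higher in both, 1 at each locus had a mean under 20 over the 2 libraries without IL-4, so these reached the minimum through the libraries in which they were high, as did 62.9% of all sites called higher in both.

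DMSO alone also gave calls. Against Untreated it called 4 Ccl24 sites and 5 Ccl22-Ccl17 sites higher, beside 16.8% of all compared sites, and 1 at each locus lower, beside 7.24%. The 4 Ccl24 calls were 1 with total reads, 1 with reads outside large sites and 0 with the trend removed, beside 10.8%, 11.3% and 10.1% of all compared sites. IL-4 alone called 6, 5 and 2 Ccl24 sites in these settings, beside 19.6%, 17.6% and 17.0%. In the presence of IL-4 it called 0 and 3 sites higher, beside 11.2%, and 1 at each locus lower, beside 9.8%. DMSO against Untreated shares the Untreated library with the IL-4 comparison, so the values are given side by side only.

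**Figure D3:**
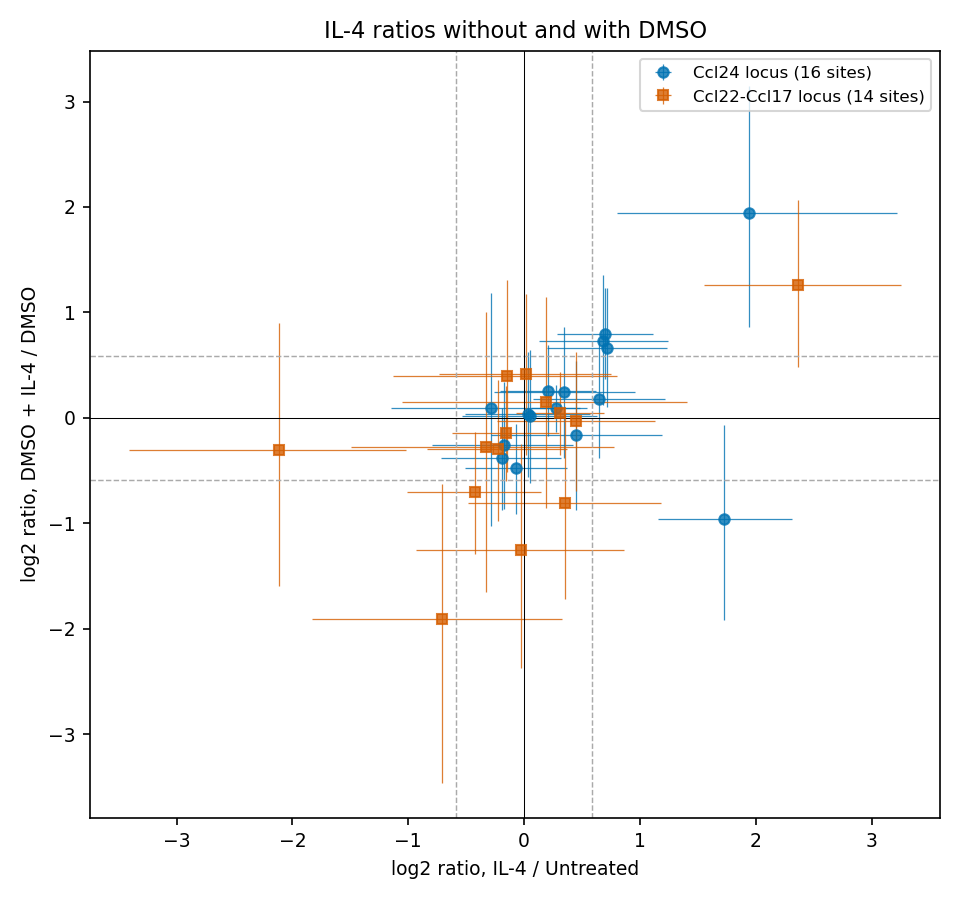
Log2 ratio of reads for IL-4 against Untreated (x axis) and DMSO + IL-4 against DMSO (y axis) at the 16 compared Ccl24 sites (circles) and 14 compared Ccl22-Ccl17 sites (squares), with 95% counting intervals as bars and dashed lines at 1.5-fold. The values have no read added, so they differ slightly from the log2 ratios in the text. In the upper right corner lie 4 Ccl24 sites and 1 Ccl22-Ccl17 site, and 1 Ccl24 site lies far to the lower right.

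Of the members with a mean of at least 50, the site with the largest rise in both IL-4 comparisons lay in the Ccl22-Ccl17 locus, at chr8:97326203-97326626, 98.7 kb after the leading site. It held 11.8 normalized reads in Untreated and 20.7 in DMSO, 60.9 with IL-4 alone and 49.5 with DMSO + IL-4, 139 with MCSF and 78.0 with latrunculin A. All 4 libraries with IL-4 were above both without it, and MCSF + IL-4 was the highest. The reads behind these values were 16, 23, 62, 40, 119 and 74. IL-4 against Untreated gave 5.14 (2.93 to 9.54), a log2 ratio of 2.27, and DMSO + IL-4 against DMSO gave 2.39 (1.40 to 4.18), a log2 ratio of 1.22. The DMSO library stood 1.75 times above Untreated (0.885 to 3.54), an interval that holds 1.

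This site was picked for its rise, and its mean over the 2 libraries without IL-4 was under 20. It reached the minimum through the libraries with IL-4, so its values only describe it. Relative to the other sites of its locus in the same libraries, this site gained 5.31 (3.0 to 9.95) and 2.71 (1.57 to 4.79) with IL-4. The fold enrichment of its peak over the local background, as the peak caller gave it in each library, was 3.15 in Untreated and 4.77 in DMSO, 10.5 with IL-4 alone and 8.79 with DMSO + IL-4, 16.7 with MCSF and 12.2 with latrunculin A, the same order as the reads. Its gain with IL-4 contrasts with the leading site of the locus, which gave log2 ratios of 0.31 and 0.04. The site with the profile most like it over the 6 libraries, among 34829 sites outside both windows, was chr1:9537935-9538456 (Pearson r of 0.996 over 6 libraries), and that site held 14.1, 30.6, 84.4, 69.3, 187 and 98.1 normalized reads in the same order of libraries.

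In the Ccl24 locus, 4 sites passed 1.5-fold in both IL-4 comparisons. With the trend removed all 4 still passed with DMSO but only 1, chr5:135953913-135954241, passed without it, where the others gave log2 ratios of 0.49 to 0.58. Of these, chr5:136102451-136103139 lay 1.12 kb after the leading site and had the second-highest mean of the locus. It held 66.6 normalized reads in Untreated and 74.7 in DMSO, 108 with IL-4 alone and 130.0 with DMSO + IL-4, 261 with MCSF and 167 with latrunculin A. The 4 libraries with IL-4 again did not overlap the 2 without it. The ratios were 1.62 (1.22 to 2.17) and 1.74 (1.29 to 2.35), while DMSO against Untreated gave 1.12 (0.823 to 1.53). Peak enrichment at this site was 2.32, 2.82, 4.85, 6.10, 10.5 and 4.98 in the order of the libraries above, so the peak was also higher in each IL-4 library than in either library without IL-4. The leading site beside it held 291, 345, 351, 368, 336 and 554 normalized reads, and its IL-4 ratios were 1.21, with an interval above 1, and 1.07 (0.913 to 1.24).

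The 2 other well-covered sites of the 4 were a close pair. One of them, chr5:136080512-136080882, held 38.5 normalized reads in Untreated and 38.7 in DMSO, 61.8 with IL-4 alone and 64.4 with DMSO + IL-4, 98.4 with MCSF and 166 with latrunculin A. Its neighbour 2.04 kb further on, chr5:136082518-136082951, held 43.7, 46.8, 71.7, 74.3, 105 and 168. At both sites the 2 libraries without IL-4 lay side by side, and those given IL-4 alone or with DMSO did too. The IL-4 log2 ratios were 0.67 and 0.72 at the first and 0.70 and 0.65 at the second. In every library the second site held 1.01 to 1.21 times the reads of the first, the closest pair of profiles among the 78 pairs of described Ccl24 sites.

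Another such pair was chr5:136099730-136100027 and chr5:136104448-136104755, 1.79 kb before and 2.93 kb after the leading site, with a ratio of 0.988 to 1.19 in every library. The first held 43.7, 47.7, 45.2, 48.3, 66.8 and 85.4 normalized reads and the second 51.8, 53.1, 53.0, 54.5, 72.6 and 84.4. They hardly differed with IL-4, with log2 ratios of 0.02 to 0.05. The alignment reported up to 10 places per read, so a read in repeated sequence can be counted at more than 1 site, and whether these pairs share reads was not tested. Counting each pair once left 3 of 14 Ccl24 sites higher in both IL-4 comparisons and log2 ratios of 0.38 and 0.07 for the locus, a choice made after seeing the data.

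The last of the 4 was weak in the 2 libraries without IL-4. Its mean over them was under 20, so it reached the minimum through the libraries with IL-4. At chr5:135953913-135954241, 148 kb before the leading site, there were 6.66 normalized reads in Untreated and 9.01 in DMSO, 25.5 with IL-4 alone and 34.7 with DMSO + IL-4, 51.5 with MCSF and 62.2 with latrunculin A. A peak was called in the 4 libraries with IL-4 and in neither of the others. The ratios were 3.83 (1.74 to 9.30) and 3.85 (1.81 to 8.88), from 9 and 26 reads and from 10 and 28. The stronger site 1.06 kb after it, chr5:135954717-135955557, held 79.2, 90.1, 91.3, 108, 149.9 and 170 normalized reads and gave IL-4 log2 ratios of only 0.20 and 0.26.

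Other Ccl24 sites with a mean of at least 50 did not move the same way past 1.5-fold with IL-4. Thus chr5:136020932-136021633 held 79.2 normalized reads in Untreated and 122 in DMSO, 75.6 with IL-4 alone and 87.9 with DMSO + IL-4, 148 with MCSF and 191 with latrunculin A. The DMSO library was above both libraries of the IL-4 comparison without vehicle, and the IL-4 log2 ratios were -0.07 and -0.47. At chr5:136108316-136108862 the values were 60.7, 93.7, 53.0, 71.8, 78.5 and 87.5, with IL-4 log2 ratios of -0.19 and -0.38 and the DMSO library the highest of the 6. The site chr5:136048804-136049282 held 44.4, 57.6, 39.3, 48.3, 77.3 and 108, with -0.17 and -0.25. At these 3 sites DMSO exceeded Untreated by log2 ratios of 0.62, 0.62 and 0.37.

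In the Ccl22-Ccl17 locus, 1 site was lower past 1.5-fold in both IL-4 comparisons. It was chr8:97295885-97296207, with 19.2 normalized reads in Untreated and 27.9 in DMSO, 11.8 with IL-4 alone and 7.43 with DMSO + IL-4, 25.8 with MCSF and 31.6 with latrunculin A. The log2 ratios were -0.66 and -1.78, and a peak was called in every library except IL-4 and DMSO + IL-4. The reads were few, 26, 31, 12 and 6 in the first 4 libraries, and the interval without DMSO held 1 (0.281 to 1.26). The larger site 6.76 kb after it, chr8:97302218-97303396, held 54.0, 76.5, 40.2, 47.0, 76.1 and 103 normalized reads, lower with IL-4 at log2 ratios of -0.42 and -0.69.

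**Figure D4:**
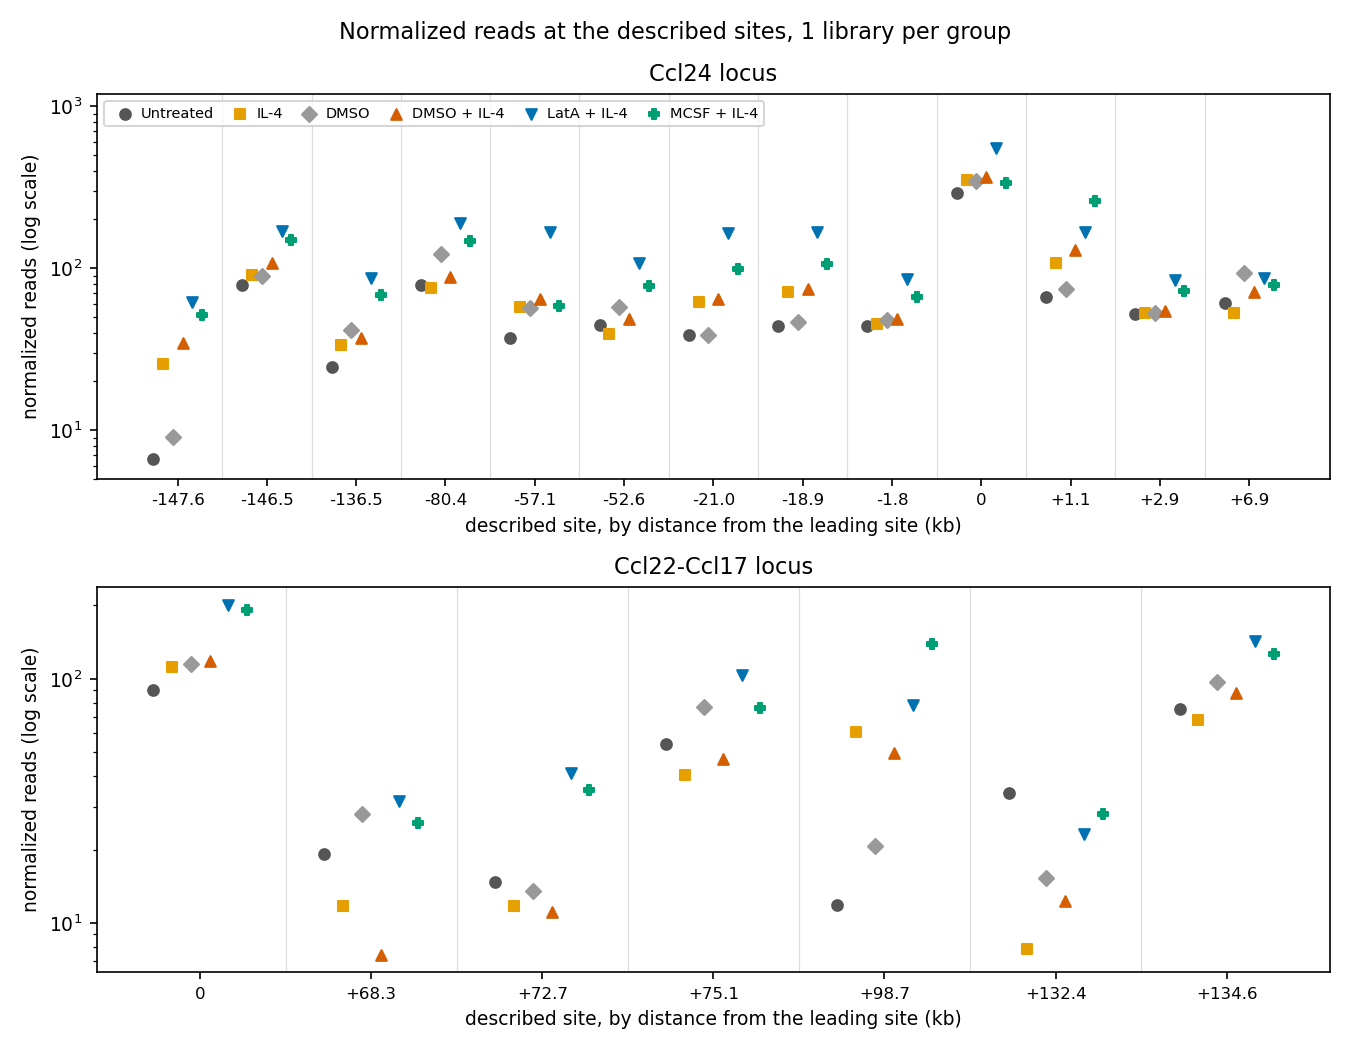
Normalized reads on a log axis at the 13 described sites of the Ccl24 locus (top) and 7 of the Ccl22-Ccl17 locus (bottom), ordered by distance from the leading site in kb, with a point for each of the 6 libraries. At the Ccl24 site 1.12 kb after the leading one the MCSF + IL-4 library is highest at 261, and at the Ccl22-Ccl17 site 98.7 kb after the leading one the 4 libraries with IL-4 lie at 49.5 to 139 and those without at 11.8 and 20.7.

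Latrunculin A gave the largest summed difference of the 6 comparisons at the Ccl24 locus. The summed log2 ratio of LatA + IL-4 against DMSO + IL-4 was 0.85 (0.75 to 0.95), a ratio of 1.80 (1.69 to 1.93), and it was 0.66 (0.52 to 0.79) at the Ccl22-Ccl17 locus. MCSF + IL-4 against IL-4, which shares no library with it, gave 0.38 (0.28 to 0.48) and 0.80 (0.67 to 0.93). Ccl24 against Ccl22-Ccl17 was 1.14 (1.02 to 1.28) with latrunculin A and 0.749 (0.667 to 0.840) with MCSF. The Ccl22-Ccl17 locus was the higher with MCSF in all 8 other settings. With latrunculin A the gap between the loci nearly closed in 3 of these, at 0.84 and 0.82 with IL-4 alone as the control, at 0.82 and 0.81 over sites with a mean of at least 20, and at 0.55 and 0.56 as medians with the trend removed, where Ccl22-Ccl17 was the higher. Against their own flanks the loci stood at 1.16 (1.05 to 1.28) and 1.20 (1.07 to 1.34) with latrunculin A, and at 0.795 (0.720 to 0.878) and 1.28 (1.14 to 1.43) with MCSF.

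By sites, 13 of 16 compared Ccl24 sites and 10 of 14 compared Ccl22-Ccl17 sites were called higher with latrunculin A, and 0 were lower at either. Of all compared sites 30.1% were higher and 15.7% lower. With MCSF, 7 and 10 sites were higher and 1 and 0 lower, beside 29.2% and 14.9%. Strong sites in general were higher in both treated libraries, so the background was also taken over sites with a mean of at least 50, where 44.7% were higher with latrunculin A and 46% with MCSF. Of the 11 Ccl24 sites of that strength 9 were higher with latrunculin A and 5 with MCSF, and of the 4 Ccl22-Ccl17 sites 4 and 4 were. With the trend removed, latrunculin A left 8 Ccl24 sites higher and gave 1 new lower call, and MCSF left 3 higher and the same 1 lower. At the Ccl22-Ccl17 locus 5 and 7 stayed higher and 0 were lower. The share of all compared sites called higher was then 19.2% and 19.5%, and 19.7% were called lower with latrunculin A.

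Both treatments called 6 Ccl24 sites and 7 Ccl22-Ccl17 sites higher, beside 15.4% of all compared sites, and 0 sites lower at either locus, beside 4.36%. The counts were 2 and 3 with the trend removed, beside 7.87%. Some sites reached the minimum of 20 through the treated libraries, with a mean under 20 over the 4 others. They were 2 of the 13 Ccl24 and 3 of the 10 Ccl22-Ccl17 sites called higher with latrunculin A, 1 of 7 and 4 of 10 with MCSF, and 1 of 6 and 3 of 7 with both, so these counts are descriptions. Over all compared sites called higher such sites made up 19.0%, 20.5% and 22.1%. The median log2 ratio with latrunculin A was 0.97 over the 16 Ccl24 sites and 0.70 over the 14 Ccl22-Ccl17 sites, beside 0.20 over all compared sites and 0.53 over those with a mean of at least 50. With MCSF the medians were 0.56 and 0.99, beside 0.16 and 0.54.

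**Figure D5:**
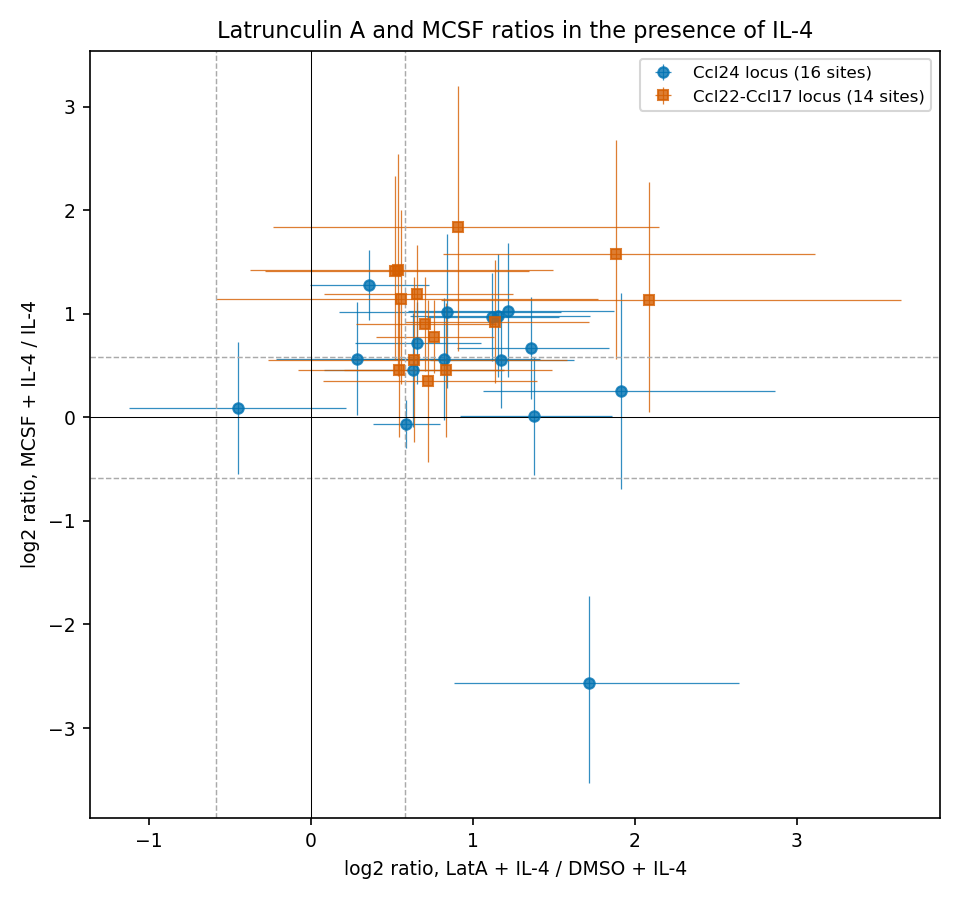
Log2 ratio of reads with latrunculin A, LatA + IL-4 over DMSO + IL-4 (x axis), and MCSF + IL-4 against IL-4 (y axis) at the 16 compared Ccl24 sites (circles) and 14 compared Ccl22-Ccl17 sites (squares), with 95% counting intervals as bars and dashed lines at 1.5-fold, no read added. The 14 Ccl22-Ccl17 sites lie above 0 on both axes, and the Ccl24 sites spread from the upper left, with little difference by latrunculin A, to the lower right.

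The Ccl24 sites differed among themselves in which treatment moved them. The site 1.12 kb after the leading one gained 2.42 (1.92 to 3.07) with MCSF and 1.28 (0.995 to 1.66) with latrunculin A. Relative to the other sites of the locus these were 1.98 (1.55 to 2.54) and 0.694 (0.533 to 0.906), on opposite sides of 1. With the trend removed its log2 ratios went from 1.27 to 0.64 with MCSF and from 0.36 to -0.24 with latrunculin A, a change of sign. The leading site itself was 1.51 (1.30 to 1.74) times higher with latrunculin A and 0.957 (0.816 to 1.12) with MCSF, so the intervals of the neighbouring sites did not overlap for MCSF. With the trend removed the log2 ratios of the leading site went from 0.59 to 0.17 with latrunculin A, no longer past 1.5-fold, and from -0.06 to -0.53 with MCSF.

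An opposite case was chr5:136044118-136045118, 57.1 kb before the leading site. It held 37.0 normalized reads in Untreated and 56.7 in DMSO, 57.9 with IL-4 alone and 64.4 with DMSO + IL-4, 58.6 with MCSF and 168 with latrunculin A. The LatA + IL-4 library was the highest and Untreated the lowest, at 1.57 (1.06 to 2.33) for IL-4 against Untreated and 1.53 for DMSO against Untreated, also with an interval above 1. The treatments gave log2 ratios of 1.37 for latrunculin A and 0.02 for MCSF, although the fold enrichment of its peak was 8.09 in the vehicle control with IL-4 and 6.15 with latrunculin A. With the trend removed its log2 ratios were 0.49 for IL-4 against Untreated and 0.30 for DMSO against Untreated, neither past 1.5-fold. They were 0.79 for latrunculin A and -0.51 for MCSF. The pair chr5:136080512-136080882 and chr5:136082518-136082951 had latrunculin A ratios of 2.57 (1.87 to 3.59) and 2.26 (1.67 to 3.09) and MCSF ratios of 1.59 (1.13 to 2.24) and 1.47 (1.07 to 2.03). Their log2 ratios with the trend removed were 0.79 and 0.59 with latrunculin A, still past 1.5-fold, and 0.10 and -0.04 with MCSF, so the MCSF call at the first ended and the sign at the second changed. A site at chr5:135964916-135965495, with 24.4, 41.4, 33.4, 37.1, 67.9 and 86.5 normalized reads, was higher with both, at log2 ratios of 1.20 and 1.00.

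The remaining strong Ccl24 sites varied in both ratios. Log2 ratios with latrunculin A and with MCSF were 1.11 and 0.96 at chr5:136020932-136021633, 1.14 and 0.96 at chr5:136048804-136049282 and 0.65 and 0.71 at chr5:135954717-135955557. They were 0.81 and 0.55 at chr5:136099730-136100027 and 0.62 and 0.45 at chr5:136104448-136104755. The weakest response to latrunculin A among the strong sites was 0.28, at chr5:136108316-136108862, where neither treatment passed 1.5-fold, with ratios of 1.22 (0.861 to 1.74) for latrunculin A and 1.48 (1.02 to 2.16) for MCSF. Its log2 ratio with latrunculin A was -0.30 with the trend removed, a change of sign, and those at chr5:135954717-135955557 fell to 0.05 and 0.07. At chr5:136020932-136021633 they fell to 0.52 and 0.31, and at chr5:136048804-136049282 to 0.68, still past 1.5-fold, and 0.50. The latrunculin A log2 ratios at chr5:136099730-136100027 and chr5:136104448-136104755 fell to 0.44 and 0.16. Of the 11 latrunculin A and 7 MCSF calls at described Ccl24 sites, 6 and 3 stayed past 1.5-fold in that setting. The weak site chr5:135953913-135954241 gave 0.83 and 0.99.

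The 4 Ccl22-Ccl17 sites with a mean of at least 50 were all called higher with both treatments. The leading site held 90.3 normalized reads in Untreated and 115 in DMSO, 112 with IL-4 alone and 119 with DMSO + IL-4, 192 with MCSF and 201 with latrunculin A. Its ratio was 1.70 (1.32 to 2.19) with latrunculin A and 1.72 (1.34 to 2.20) with MCSF, and the 4 other libraries lay below both. The site chr8:97361929-97362855 held 75.5, 97.3, 67.7, 87.9, 127 and 143 normalized reads, with 1.63 (1.22 to 2.21) and 1.87 (1.37 to 2.56). None of these 4 ratios passed 1.5-fold with the trend removed. The log2 ratios with latrunculin A and with MCSF were then 0.15 and 0.12 at the leading site and 0.11 and 0.27 at the other. At chr8:97302218-97303396 the ratios were 2.20 (1.5 to 3.29) and 1.89 (1.26 to 2.87). With the trend removed its log2 ratios were 0.59 with latrunculin A and 0.38 with MCSF, the latter no longer past 1.5-fold. The site chr8:97326203-97326626, picked above for its IL-4 ratios, gained 1.58 (1.06 to 2.38) with latrunculin A and 2.29 (1.67 to 3.17) with MCSF. Relative to the rest of its locus these were 0.998 (0.662 to 1.52) and 1.35 (0.971 to 1.90), intervals that hold 1. With the trend removed its log2 ratios were 0.19 with latrunculin A, no longer past 1.5-fold, and 0.75 with MCSF. Of 7 calls with each treatment at described Ccl22-Ccl17 sites, 4 stayed past 1.5-fold with the trend removed.

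Weaker sites of the Ccl22-Ccl17 locus gave larger ratios from few reads. The 3 described next each had a mean under 20 over the 4 libraries without latrunculin A or MCSF. They reached the minimum only through the treated libraries. The site lower with IL-4, chr8:97295885-97296207, was higher with both treatments, at log2 ratios of 1.95 for latrunculin A and 1.07 for MCSF. The controls of these ratios, DMSO + IL-4 and IL-4, are the libraries in which it was found low. The ratios are thus not independent of that choice. At chr8:97300270-97300588 there were 14.8 normalized reads in Untreated and 13.5 in DMSO, 11.8 with IL-4 alone and 11.1 with DMSO + IL-4, 35.1 with MCSF and 41.1 with latrunculin A. The treated libraries were both above the rest, with log2 ratios of 1.80 and 1.5. At chr8:97359958-97360415 the values were 34.0, 15.3, 7.85, 12.4, 28.1 and 23.2, and the only library with a peak was Untreated, so this site was highest without any addition. Its log2 ratios were 0.86 with latrunculin A and 1.72 with MCSF, and -1.98 for IL-4 against Untreated and -1.10 for DMSO against Untreated. DMSO + IL-4 against DMSO gave only -0.29, a ratio of 0.809 (0.331 to 1.87) whose interval held 1.

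The 7 other compared sites of the Ccl22-Ccl17 locus had means of 20.7 to 49.7 and gave log2 ratios of 0.50 to 0.82 with latrunculin A and 0.34 to 1.36 with MCSF. The MCSF ratio was 2.67 (1.47 to 5.04) at chr8:97226644-97227047, 0.904 kb before the leading site, and 2.69 (1.32 to 5.82) at chr8:97385309-97385555. Of the 3 other compared Ccl24 sites, 1 was chr5:136077759-136078395, where the log2 ratio with latrunculin A was -0.44, from 36.3, 45.0, 46.1, 53.2, 49.2 and 39.0 normalized reads. Another, chr5:136083783-136084272, had 17.3 normalized reads with DMSO + IL-4 and 65.4 with latrunculin A, a ratio of 3.77 (2.09 to 7.30), and 1.19 (0.620 to 2.30) with MCSF. The third, chr5:136138381-136139080, went opposite ways in the IL-4 comparisons.

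The leading sites had profiles shared by sites elsewhere in the genome. Over the 6 libraries, Pearson r was 0.992 to 0.996 for the 3 sites most like the leading Ccl24 site and 0.999 for each of the 3 most like the leading Ccl22-Ccl17 site, each found among 34829 candidates by the smallest difference in profile. For the Ccl24 site 1.12 kb after the leading one they were 0.997 to 0.999. These are descriptions over 6 libraries, chosen for likeness among many sites.

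Sites continued across the edges of the windows. The first and last sites inside the Ccl24 window had means of 12.5 and 8.20 normalized reads, and the nearest outside had 53.0 and 25.0. For the Ccl22-Ccl17 window these were 8.14 and 13.4 inside and 10.0 and 42.4 outside, the last of them only 6 bases past the edge.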

How the data were processed

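ATAC-seq was done in BMDMs, 1 library per group, with groups taken from the labels. Per the study's methods, reads were trimmed with Cutadapt, aligned to mm9 with Bowtie2 at up to 10 places per read, and freed of duplicates, blacklisted regions and mitochondrial reads with Picard and BEDTools. How mates were counted and how peaks were joined into sites is not given in the sources used here, nor are tool versions. The deposited signal per site was made by the authors from featureCounts reads scaled with TMM factors in edgeR. Its steps gave back whole reads for 100% of values (within 0.01 read). The authors' fold enrichment of each deposited peak, a ratio from macs2 within 1 library, and the deposited −log10 q that it gave for the same peaks were used only to describe peaks.

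Reads were divided by the deposited library sizes with Python 3.11.15, numpy 2.4.6, pandas 2.3.3 and SciPy 1.17.1. Sites with a mean under 20 normalized reads, 77.2% of all, were not compared, and 20 normalized reads stand for 16.2 to 27.0 reads by library. Intervals and calls were tested only on reads simulated with counting error alone and with changes well past 1.5-fold. Calls near 1.5-fold and variation between libraries were thus not tested. Reads carry no molecular identifiers and are not independent molecules, so intervals cover counting error only. Within each locus every site with a mean of at least 50 was described, with at most 12 per locus, and also up to 4 with a mean of at least 20 that passed 1.5-fold the same way in both IL-4 comparisons or with both treatments. The site at chr5:136138381-136139080 is described in the closing section. Likeness was the root mean square difference of centred log2 profiles. Alternatives were other scalings (DESeq2 1.42.0 size factors in R 4.3.3 among them), filters, folds and added reads, removal of the trend with mean signal in 200 bins, medians, crossed controls, and other peak thresholds. The members, lists and rules were chosen with earlier results of these data known.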

Additional observations from a re-analysis of the deposited data

Results flagged for a closer look

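At chr5:136138381-136139080, a site 37.1 kb after the leading Ccl24 site, IL-4 went opposite ways without and with DMSO. It held 27.4 normalized reads in Untreated and 36.0 in DMSO, 90.3 with IL-4 alone and 18.6 with DMSO + IL-4, 15.2 with MCSF and 61.2 with latrunculin A. The log2 ratio was 1.69 for IL-4 against Untreated (37 and 92 reads) and -0.92 for the same contrast in DMSO (40 and 15 reads). Each is 1 library against 1, and the difference between them was not tested. MCSF + IL-4 was 5.93 times lower (3.30 to 11.6) than IL-4, and latrunculin A was 3.29 times higher (1.84 to 6.26) than its vehicle control. A peak was called in 4 libraries, with IL-4 alone (fold enrichment 13.1), with latrunculin A (11.3), in DMSO (5.46) and in Untreated (4.49).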

How the results depend on the processing

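No paired analysis was possible because each group has 1 library and the groups share no replicate numbers; leaving out a replicate was likewise not run. None of the summed log2 ratios that passed 1.5-fold changed sign under an alternative, and DESeq2 size factors moved no count of sites by over 1.5 times. Scaling to total reads lowered the median of all compared sites by 0.12 for DMSO against Untreated, and scaling to reads outside large sites (mean of at least 1000) lowered it by 0.10 there, by 0.19 with latrunculin A and by 0.20 with MCSF.

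At the Ccl24 locus, DMSO against Untreated became 0.17 with total reads, 0.18 outside large sites and -0.0149 as a median over sites with the trend removed. Latrunculin A became 0.65 outside large sites, 0.97 as a median over sites and 0.55 as a median with the trend removed. MCSF became 0.18, 0.56 and 0.0845 in the same settings, and 0.49 without the leading site. IL-4 against Untreated became 0.18 as a median with the trend removed (0.31 as a median alone), and the vehicle added to IL-4 became 0.15 as a median. At the Ccl22-Ccl17 locus, as a median with the trend removed, IL-4 against Untreated became -0.17, DMSO against Untreated 0.13 and MCSF 0.63. Outside large sites latrunculin A became 0.46 and MCSF 0.59. Over sites with a mean of at least 20 latrunculin A became 0.81, and as a median over sites MCSF became 0.99. With the IL-4 libraries with and without DMSO exchanged as controls, latrunculin A became 0.82 and MCSF 0.64 there, while latrunculin A was 0.84 at the Ccl24 locus.

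Calls at single sites were less stable. Of 55 calls at described sites, all kept their sign in 5 settings, and 31 (trend removed) to 54 (DESeq2) stayed past 1.5-fold. Of 120 log2 ratios at described sites, 21 moved beyond their counting interval with the trend removed. With the trend removed 1 of 16 Ccl24 sites, not 4, was higher in both IL-4 comparisons (7.93% of all compared sites), 2 were higher with both treatments, not 6 (7.87% of all), and 2 were higher with IL-4 alone, not 6 (17.0% of all). With DMSO, 4 stayed higher with IL-4 (16.1% of all). At the Ccl22-Ccl17 locus 3 were higher with both treatments (not 7), 2 were lower in both IL-4 comparisons (not 1, 3.17% of all) and 5 of 14 were higher with latrunculin A (not 10, 19.2% of all). DMSO against Untreated called 0 Ccl24 sites higher with the trend removed and 1 with either total, not 4, and with the trend removed 3 Ccl22-Ccl17 sites, not 5 (10.1% of all). Outside large sites 5 Ccl22-Ccl17 sites and 10 Ccl24 sites were higher with latrunculin A (19.9% of all), and 1 Ccl24 site was lower (23.2% of all). Past 2-fold, latrunculin A called 8 and 3 sites higher (11.5% of all), and IL-4 alone 2 and 1 (9.32% of all). With a mean of at least 10, latrunculin A called 24 of 34 and 17 of 25 sites higher (25.9% of all), and with no filter 36 of 58 and 23 of 50 (27.5% of all). The causes were not tested. Depth limits the weak sites, most of which held few reads per library.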
